A study of Canis lupus familiaris with 15 samples.

Results

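The genes of the transforming growth factor beta (TGF-beta) and bone morphogenetic protein (BMP) pathway were followed in canine osteosarcoma cells that had left the blood vessels of zebrafish and in the cells they came from. A list of 57 genes was taken by symbol from 3 deposited tables of differentially expressed genes, and 34 of the 57 appear in at least 1 table, among 7698 genes listed in all. The lines are D17, a metastatic canine osteosarcoma line, POS, another canine osteosarcoma line, and HMPOS, which was derived from POS and metastasizes highly. The groups were D17 extravasated, D17 parental, HMPOS extravasated, HMPOS parental and POS parental, with 3 libraries each and 15 in all. Extravasated cells are extravasation-positive sub-lines: cell clusters that had been injected into the circulation of Tg(fli1a:EGFP) embryos, had crossed the vessel wall, were dissected out with the surrounding embryo tissue and then grown in culture. Parental cells are the starting lines, which were kept in culture and never injected. Exposure to the fish, isolation, selection and regrowth therefore cannot be told apart from extravasation. Below, levels after extravasation are those of the sub-lines, set beside parental cells. The lines carry no stated genetic change between sub-line and parent.

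Expression is given as FPKM, the number of fragments scaled to transcript length and to the mapped fragments of the library, so levels of different genes can be compared per length. Each table holds 1 pooled FPKM for each of its groups and no value per library. The spread between libraries and the depth are therefore unknown, and no SD, interval or test was computed from these values. The test results that the authors listed per row were not used. A gene is in a table because the authors' own test marked it as significant, so the members listed had to differ between the groups. A gene that is not listed either did not pass that test or was not measured under that symbol, and these cannot be told apart. The rows have no fold change below 1.22 for D17, 1.31 for HMPOS and 1.18 for HMPOS against POS. All log2 ratios here are recomputed from the group values as the first named group over the second. The groups are named meta and norm in the tables, and norm was read as parental because POS, which has parental libraries alone, carries that name. The article describes the balance of higher and lower genes in extravasated cells the other way round. It also reports extracellular matrix organization as enriched among genes with lower levels in extravasated cells of both lines. The directions between extravasated and parental cells therefore rest on this reading of the names. Each of them would turn if the names, or for D17 the columns, were exchanged. HMPOS against POS keeps its direction under exchanged names, but its HMPOS group would then be the extravasated cells. HMPOS parental cells appear in 2 tables, and for the 8 members listed in both the 2 parental values differed by at most 0.00181 on the log2 scale, whereas the extravasated value differed from the parental one by a median of 0.71. Exchanged columns in either of these tables would have broken that match, whereas exchanged names would not.

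Ligands of this family are secreted dimers that bring type I and type II receptor kinases together. TGF-beta and activin receptors phosphorylate SMAD2 and SMAD3, BMP receptors phosphorylate SMAD1, SMAD5 and SMAD9, and both kinds of SMAD enter the nucleus with SMAD4. Secreted antagonists such as noggin, chordin and follistatin trap the ligands, SMAD6 and SMAD7 damp the receptors as feedback inhibitors, and the ID genes are classical BMP targets. In bone, BMPs promote the formation of osteoblasts from progenitors, and TGF-beta is stored in the mineralised matrix.

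On this reading of the group names, the ligands and receptors listed for D17 had higher levels in extravasated cells, while the listed inhibitory SMADs and the BMP target ID3 had lower ones. The D17 table lists 15 of the 57 members, 10 higher and 5 lower in extravasated than in parental cells. On the same reading, the ligands BMP5 and TGFB2 were lower and the extracellular antagonists CHRD and CHRDL1 were higher in extravasated HMPOS cells. The HMPOS table lists 8 members, 6 higher and 2 lower. Between the parental lines, 30 members are listed, 10 higher and 20 lower in HMPOS than in POS, among them ID4, TGFB2 and ID3. Over all rows, and again on this reading for the first 2 tables, 54.2% were higher in extravasated D17 cells, 67.0% in extravasated HMPOS cells and 47.7% in HMPOS against POS, beside 66.7%, 75% and 33.3% of the listed members. The median log2 ratio of the listed members was 0.63 for D17, 0.61 for HMPOS and -0.61 for HMPOS against POS, beside medians over all rows of 0.39, 0.58 and -0.31.

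A fold change above 2 is the threshold used for counts. In D17, 4 of the 15 listed members were higher by more than 2-fold and 1 was lower, that is 26.7% and 6.67%, against 18.3% and 8.50% of all rows of that table. In HMPOS, 2 of the 8 were higher and 1 was lower by more than 2-fold, that is 25% and 12.5%, against 20.5% and 4.79% of all rows. In HMPOS against POS, 2 of the 30 were higher and 10 lower, that is 6.67% and 33.3%, against 8.49% and 19.1% of all rows. Centred on the median of all rows, the same counts became 2 higher (TGFBR3 and HTRA1) and 2 lower (ID3 and SMAD9) for D17, 2 and 2 for HMPOS, and 4 and 7 for HMPOS against POS. The centred shares of all rows were 10.8% and 23% for D17, 6.14% and 30.4% for HMPOS, and 17.5% and 13.2% for HMPOS against POS. The median is taken over rows that differed and is no neutral zero.

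**Figure D1:**
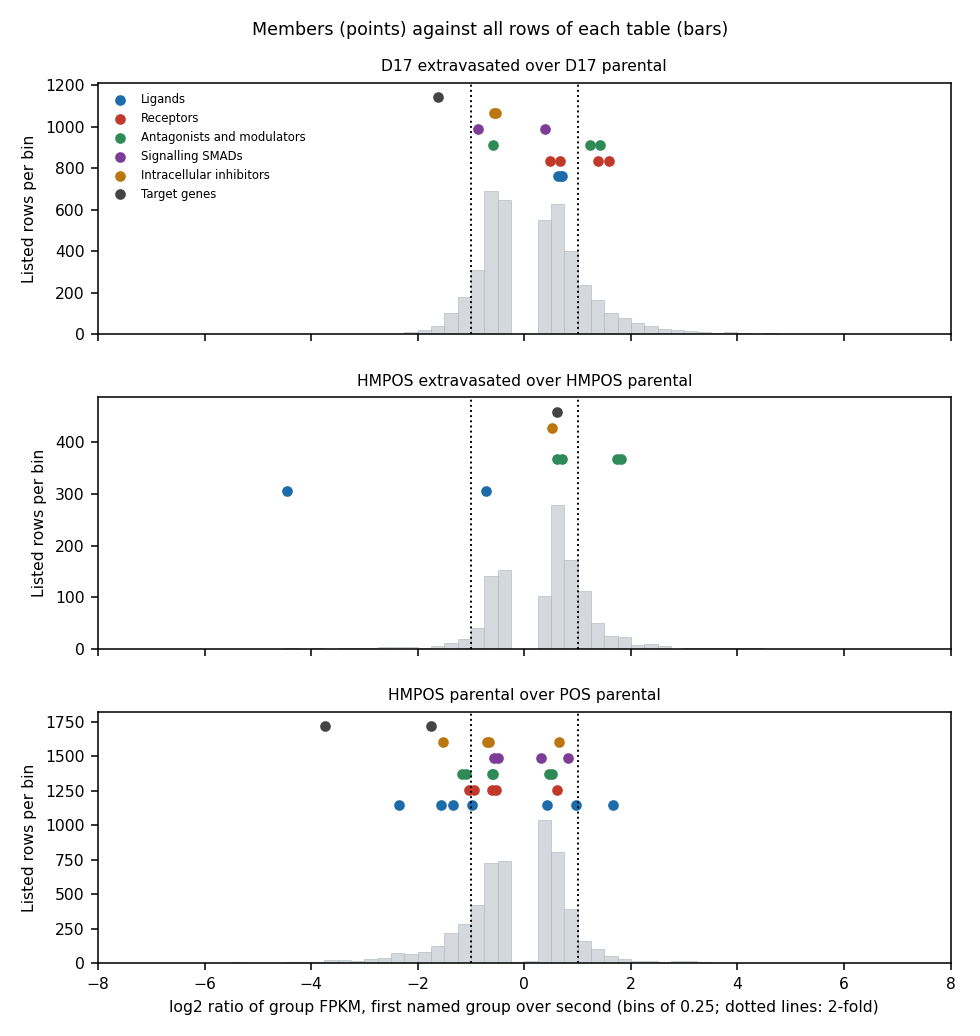
Distribution of log2 ratios of group FPKM (x axis, bins of 0.25) over all rows of each table (grey bars, y axis in rows) with the listed members as points coloured by role and stacked at arbitrary heights above the bars. Members with a value of 0 in 1 group are not drawn, and dotted lines mark 2-fold. The gap around 0 is there because only rows passing the authors' test are listed, and most members lie between the dotted lines, with BMP5 at -4.46 farthest to the left in the HMPOS panel.

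Among the ligands, 3 of 17 are listed for D17. All 3 were higher in extravasated cells, as were 54.2% of all rows, and each by less than 2-fold. TGFB1, the most widely expressed TGF-beta isoform, measured 24.3 FPKM in parental cells and 39.4 FPKM after extravasation, a log2 ratio of 0.69. INHBB, the activin beta B subunit, went from 20.7 to 34.0 FPKM, a log2 ratio of 0.72. INHBA, the beta A subunit whose dimer is activin A, went from 7.70 to 12.0 FPKM, a log2 ratio of 0.63. BMP ligands are not listed for D17, so no BMP value can be given for that line.

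Receptors accounted for 4 of the 15 D17 rows, and all 4 were higher in extravasated cells, as were 54.2% of all rows. TGFBR3, which encodes the coreceptor betaglycan that presents TGF-beta to the signalling receptors, measured 7.72 FPKM in parental cells and 23.2 FPKM after extravasation, 3.01-fold higher with a log2 ratio of 1.59. It is listed on chromosome 6 from 57047785 to 57220335. TGFBR2, the type II receptor kinase that binds TGF-beta, measured 10.9 and 28.4 FPKM in the same order, 2.61-fold higher with a log2 ratio of 1.38, on chromosome 23 from 13866516 to 13963750. After centring on all rows TGFBR2 stood just under 2-fold, at a log2 ratio of 0.998. The BMP and activin type I receptor ACVR1 measured 6.23 and 9.85 FPKM, and the BMP type I receptor BMPR1B 4.95 and 6.90 FPKM, log2 ratios of 0.66 and 0.48. TGFBR1, the type I partner of TGFBR2, is not listed in any table.

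The secreted modulators HTRA1 and FSTL1 had the highest levels among the listed members in every group of every table. HTRA1, a secreted serine protease reported to act on TGF-beta family ligands, measured 192.2 FPKM in parental cells and 512.0 FPKM after extravasation of D17, a log2 ratio of 1.41. FSTL1, a secreted follistatin-like glycoprotein, measured 153.7 and 361.8 FPKM, a log2 ratio of 1.24, which was 0.85 after centring. FSTL3, which binds activins, was the listed modulator with the lower level in extravasated D17 cells, at 19.4 FPKM in parental cells and 12.9 FPKM after extravasation, a log2 ratio of -0.59. HTRA1 is listed on chromosome 28 from 32131714 to 32160392 and FSTL1 on chromosome 33 from 23891610 to 23931141.

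Inside the D17 cells, listed feedback inhibitors and the ID target were lower after extravasation, where 54.2% of all rows were higher. ID3, an inhibitor of basic helix-loop-helix factors that BMP signalling induces, measured 136.9 FPKM in parental cells and 44.8 FPKM after extravasation, 3.06-fold lower with a log2 ratio of -1.61. It is listed on chromosome 2 from 75880626 to 75881786. SMAD6, the inhibitory SMAD that acts mainly on BMP receptors, went from 16.4 to 11.1 FPKM, a log2 ratio of -0.56. SMAD7, which inhibits TGF-beta and BMP receptors, went from 7.04 to 4.84 FPKM, a log2 ratio of -0.54. The listed signalling SMADs of the BMP branch had opposite directions, with SMAD9 going from 5.91 to 3.23 FPKM, a log2 ratio of -0.87, and SMAD5 from 12.7 to 16.7 FPKM, a log2 ratio of 0.39. After centring SMAD5 was at 0.0037, close to the median row.

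**Figure D2:**
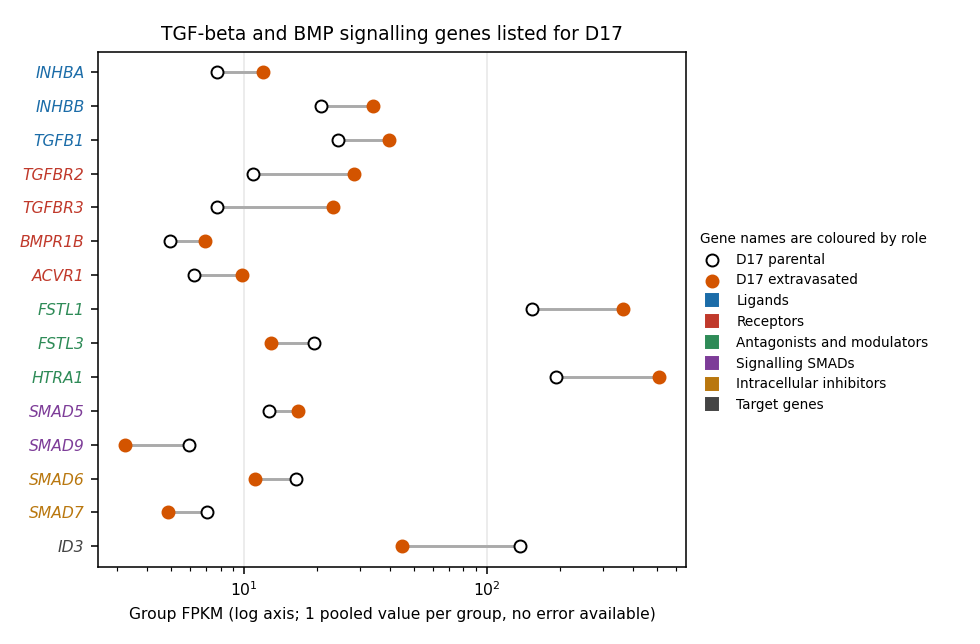
Group FPKM (log x axis) of the 15 members listed for D17, with open circles for parental and filled circles for extravasated cells, and gene names coloured by role. Each point is 1 pooled group value without error. Filled circles lie to the right for the ligands, the receptors, FSTL1, HTRA1 and SMAD5 and to the left for FSTL3, SMAD9, SMAD6, SMAD7 and ID3.

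In HMPOS, the member with the largest ratio was BMP5, a BMP of the BMP5, BMP6 and BMP7 group. It measured 2.84 FPKM in parental HMPOS cells and 0.129 FPKM after extravasation, 22.0-fold lower with a log2 ratio of -4.46, and in POS it is listed at 0. BMP5 carries the identifier ENSCAFG00000002345 and is listed on chromosome 12 from 23087863 to 23202150. Ratios at least as large in either direction, rows at 0 in 1 group included, were found in 0.421% of the rows of the HMPOS table. Of the 3 groups in which BMP5 was listed, HMPOS parental cells alone were above 1 FPKM. The 0 in POS gives no ratio, since a ratio to 0 is not finite, and the depth behind the 0 and the 0.129 FPKM is unknown.

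TGFB2, the TGF-beta isoform that depends most on betaglycan for receptor binding, was lower in both comparisons that list it. In the first it measured 9.11 FPKM in parental HMPOS cells and 5.51 FPKM after extravasation, a log2 ratio of -0.73. In the second it measured 46.2 FPKM in POS and 9.10 FPKM in HMPOS, 5.08-fold lower with a log2 ratio of -2.34. The order of its levels was POS parental, HMPOS parental, HMPOS extravasated. TGFB2 has the identifier ENSCAFG00000010815 and is listed on chromosome 38 from 13430722 to 13512431.

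All 4 listed antagonists and modulators were higher in extravasated than in parental HMPOS cells, as were 67.0% of all rows. CHRD, which encodes the BMP antagonist chordin, went from 0.533 to 1.78 FPKM, 3.34-fold higher with a log2 ratio of 1.74. CHRDL1, a chordin-like BMP antagonist, went from 0.475 to 1.66 FPKM, 3.50-fold higher with a log2 ratio of 1.81. Both are low, and with 1 FPKM added to both groups neither was past 2-fold. CHRD lies on chromosome 34 from 17255548 to 17264791 and CHRDL1 on chromosome X from 83815224 to 83936750. FSTL1 went from 212.4 to 345.4 FPKM, a log2 ratio of 0.70, and HTRA1 from 370.9 to 566.3 FPKM, a log2 ratio of 0.61. After centring FSTL1 was at 0.12, close to the median row.

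The remaining HMPOS rows were an inhibitor and a target. PMEPA1, a TGF-beta target that restrains SMAD2 and SMAD3, went from 5.77 to 8.26 FPKM, a log2 ratio of 0.52, and became -0.066 after centring, so its direction depends on the scaling. ID3 went from 34.5 to 52.7 FPKM, a log2 ratio of 0.61 that was 0.027 after centring. HTRA1 also stood at 0.027 after centring, while CHRD and CHRDL1 stood at 1.16 and 1.22. No receptor and no signalling SMAD of the list is in the HMPOS table.

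Of the 57 members, 3 are listed for both extravasated lines. The share of all genes listed for both was not counted, so this overlap has no background beside it. HTRA1 and FSTL1 were higher after extravasation of both, with log2 ratios of 1.41 and 1.24 in D17 beside 0.61 and 0.70 in HMPOS. Of all rows, 54.2% were higher in D17 and 67.0% in HMPOS. After centring HTRA1 and FSTL1 were at 1.03 and 0.85 in D17 and at 0.027 and 0.12, near the median row, in HMPOS. ID3 was lower in extravasated D17 cells and higher in extravasated HMPOS cells, at -1.61 and 0.61. Whether the changes differ between the lines was not tested, since no value per library is at hand.

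**Figure D3:**
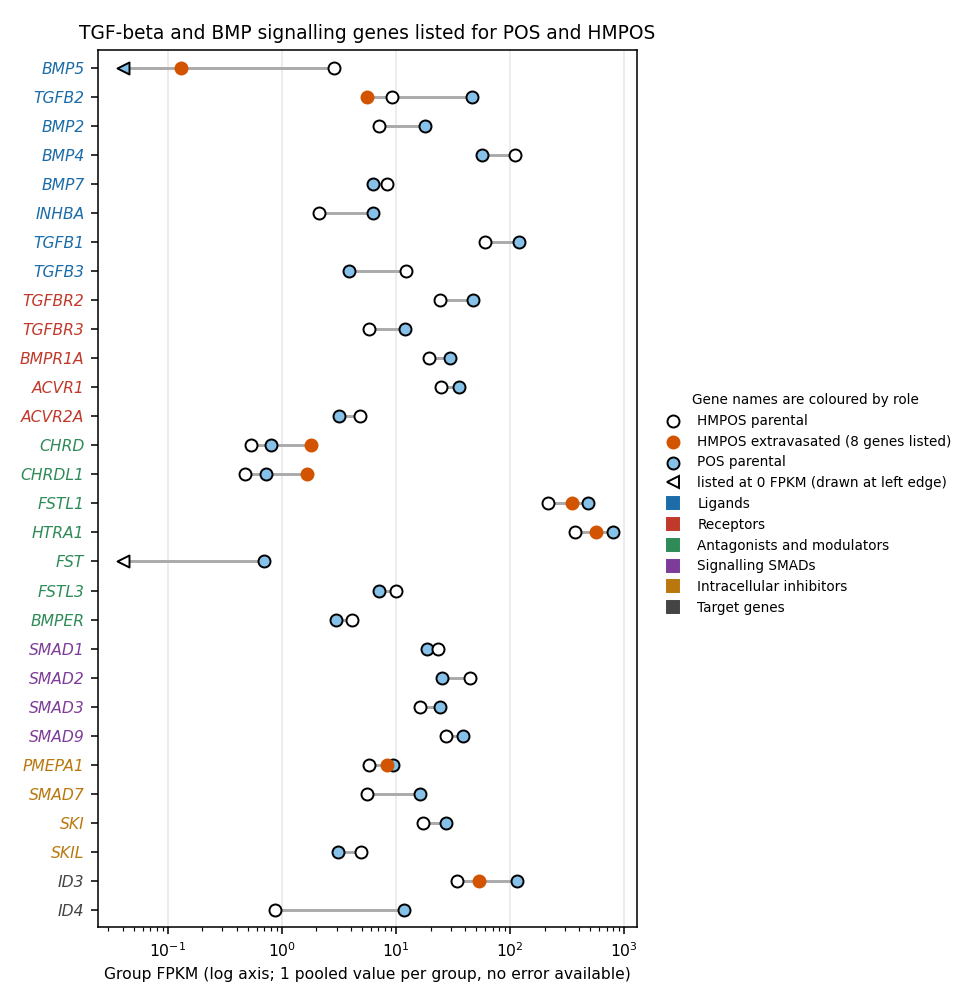
Group FPKM (log x axis) of the 30 members listed for HMPOS or POS, with blue circles for POS parental, open circles for HMPOS parental and orange circles for HMPOS extravasated cells. Each point is 1 pooled group value without error, and triangles at the left edge stand for values listed at 0. For HTRA1, FSTL1, ID3 and PMEPA1 the orange circle lies between the open and the blue one, for CHRD and CHRDL1 it lies to the right of both, and for TGFB2 to the left of both.

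More members are listed between the parental lines HMPOS and POS than between either extravasated line and its parent, in a table that also has more rows, 5746 against 4412 for D17 and 1189 for HMPOS. This comparison shares the HMPOS parental libraries with the HMPOS extravasation table, so the values of the 8 members in both are given side by side and their ratios are not set against each other. The tables were also normalised separately. In the order POS parental, HMPOS parental and HMPOS extravasated, HTRA1 was at 785.9, 370.5 and 566.3 FPKM. FSTL1 was at 479.7, 212.2 and 345.4 FPKM in the same order. For PMEPA1 the levels were 9.32, 5.76 and 8.26 FPKM. In each of these the HMPOS parental value was the lowest of the 3.

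Ligands made up 8 of the 30 rows, 4 higher and 4 lower in HMPOS, where 47.7% of all rows were higher. BMP4, a ligand that drives osteoblast formation, had the highest level among the listed ligands in HMPOS, 110.8 FPKM against 56.4 FPKM in POS, a log2 ratio of 0.98 and 1.97-fold, just short of the threshold. TGFB3 measured 3.84 FPKM in POS and 12.2 FPKM in HMPOS, 3.19-fold higher with a log2 ratio of 1.67. Its span, on chromosome 8 from 48565571 to 48945082, overlaps that of TTLL5, so reads of these genes may not have been kept apart. BMP7 measured 6.26 and 8.37 FPKM in POS and HMPOS, a log2 ratio of 0.42. BMP5 at 2.83 FPKM against 0 completed the higher ones.

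On the lower side, BMP2, the other classical bone-inducing BMP of the list, measured 18.0 FPKM in POS and 7.10 FPKM in HMPOS, a log2 ratio of -1.34. INHBA measured 6.25 and 2.12 FPKM in that order, a log2 ratio of -1.56. TGFB1 measured 119.6 and 60.2 FPKM, 1.99-fold lower with a log2 ratio of -0.99. The closely related ligands BMP2 and BMP4 thus had opposite directions in the same comparison, as did TGFB3 and the other 2 TGF-beta isoforms.

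Of the 5 receptors listed between the parental lines, 4 were lower in HMPOS, where 47.7% of all rows were higher. TGFBR3 measured 11.9 FPKM in POS and 5.81 FPKM in HMPOS, 2.05-fold lower with a log2 ratio of -1.04, and TGFBR2 measured 46.8 and 24.4 FPKM, a log2 ratio of -0.94. BMPR1A, a BMP type I receptor, measured 29.5 and 19.3 FPKM and ACVR1 35.3 and 24.5 FPKM, log2 ratios of -0.61 and -0.53. The span of BMPR1A overlaps that of WAPL. The higher one was ACVR2A, an activin type II receptor, at 3.17 FPKM in POS and 4.83 FPKM in HMPOS, a log2 ratio of 0.61.

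Antagonists and modulators gave 7 rows, 5 of them lower in HMPOS, where 47.7% of all rows were higher. HTRA1 and FSTL1 had log2 ratios of -1.08 and -1.18. FST, which encodes the activin antagonist follistatin, is listed at 0 in HMPOS and at 0.690 FPKM in POS, so it has no ratio. The chordin genes were low in both lines. CHRD measured 0.800 FPKM in POS and 0.532 FPKM in HMPOS and CHRDL1 0.722 and 0.475 FPKM, log2 ratios of -0.59 and -0.61. The other 2 were higher in HMPOS, FSTL3 at 10.1 against 7.02 FPKM and BMPER, which binds BMPs outside the cell, at 4.11 against 3.00 FPKM, with log2 ratios of 0.52 and 0.46.

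Among the signalling SMADs, SMAD2 and SMAD1 were higher and SMAD3 and SMAD9 lower in HMPOS than in POS. SMAD2 measured 25.2 FPKM in POS and 44.5 FPKM in HMPOS, a log2 ratio of 0.82, and SMAD1 18.8 and 23.4 FPKM, a log2 ratio of 0.32. SMAD3 measured 24.0 and 16.3 FPKM, a log2 ratio of -0.56, and SMAD9 38.5 and 27.3 FPKM, a log2 ratio of -0.50. Each branch of the pathway therefore had a SMAD on either side, and none was past 2-fold.

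The intracellular inhibitors were lower in HMPOS in 3 of 4 rows, where 47.7% of all rows were higher. SMAD7 measured 16.0 FPKM in POS and 5.54 FPKM in HMPOS, 2.89-fold lower with a log2 ratio of -1.53. PMEPA1 had a log2 ratio of -0.69, and the SMAD corepressor SKI measured 27.2 and 17.1 FPKM, a log2 ratio of -0.67. SKIL, the corepressor related to SKI, measured 3.11 and 4.87 FPKM, a log2 ratio of 0.65.

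Both listed ID genes were lower in HMPOS by more than 2-fold, as were 19.1% of all rows. ID4 had the lowest ratio of the members with a value in both lines. ID4 measured 11.7 FPKM in POS and 0.875 FPKM in HMPOS, 13.4-fold lower with a log2 ratio of -3.75, on chromosome 35 from 18357825 to 18358637. ID3 measured 115.2 and 34.5 FPKM, 3.34-fold lower with a log2 ratio of -1.74. ID1 and ID2 are in none of the tables.

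Across the lines, 11 members have a value in both the D17 table and the table of HMPOS against POS. These tables were normalised separately, and no ratio across them is given. SMAD9 was at 5.91 FPKM in D17 parental, 27.3 FPKM in HMPOS parental and 38.5 FPKM in POS parental cells. For ACVR1 the parental levels were 6.23, 24.5 and 35.3 FPKM in that order, for TGFBR2 10.9, 24.4 and 46.8 FPKM, and for TGFB1 24.3, 60.2 and 119.6 FPKM. In these 4 genes D17 had the lowest and POS the highest level. HTRA1 at 192.2, 370.5 and 785.9 FPKM and FSTL1 at 153.7, 212.2 and 479.7 FPKM had the same order. FSTL3 had the reverse order, at 19.4, 10.1 and 7.02 FPKM. SMAD7 was at 7.04, 5.54 and 16.0 FPKM and TGFBR3 at 7.72, 5.81 and 11.9 FPKM, both lowest in HMPOS. ID3 at 136.9, 34.5 and 115.2 FPKM and INHBA at 7.70, 2.12 and 6.25 FPKM were also lowest in HMPOS, but highest in D17. Neighbours in these orders cannot be separated by their spread, which is unknown.

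A total of 23 members are in no table. They are the ligands BMP3, BMP6, BMP8A, GDF5, GDF6, GDF10, GDF11 and INHA, the receptors TGFBR1, BMPR2, ACVR1B, ACVR2B and ENG, the modulators NOG, GREM1, HTRA3 and LRRC32, the common partner SMAD4, the inhibitors SMURF1, SMURF2 and TGIF1, and ID1 and ID2. Their levels are not known here, and their absence does not say that they were equal between the groups.

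Further genes of the pathway, 103 symbols for the storage of ligands in the matrix, other ligands, receptors, antagonists, regulators and target genes, were counted in the same way. In D17, 24 of them are listed, 21 higher and 3 lower in extravasated cells, and 8 were higher and 0 lower by more than 2-fold. That is 87.5% higher at any fold, and 33.3% and 0% past 2-fold, against 54.2%, 18.3% and 8.50% of all rows. Their median log2 ratio was 0.93, beside 0.39 over all rows, and all 10 listed target genes were higher. TAGLN, which encodes the actin-binding protein transgelin, went from 6.89 FPKM in parental cells to 120.4 FPKM, a log2 ratio of 4.13. CRIM1, counted with the receptors and coreceptors, went from 7.85 to 15.4 FPKM, a log2 ratio of 0.97. The TGF-beta-induced transcription factor KLF10 went from 23.8 to 49.4 FPKM, and the log2 ratios of BHLHE40, JUNB, KLF10 and CDKN1A lay between 1.03 and 1.12. After centring on all rows these 4 were no longer past 2-fold. All 4 had lower levels in HMPOS than in POS, with CDKN1A at -1.09 and the others between -0.54 and -0.43.

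The small leucine-rich proteoglycans decorin and fibromodulin bind TGF-beta in the matrix. Their genes were higher in extravasated D17 cells, DCN at 544.4 against 156.9 FPKM, a log2 ratio of 1.79, and FMOD at 2.27 against 0.507 FPKM, a log2 ratio of 2.16. DCN was also higher in extravasated HMPOS cells, at 11.7 against 4.69 FPKM, a log2 ratio of 1.33. These directions in extravasated cells are opposite to the one the article gives for extracellular matrix organization as a set. DCN was higher in HMPOS than in POS, at 4.68 against 2.52 FPKM, a log2 ratio of 0.89. FMOD is listed in that last comparison with low values, 0.0961 FPKM in POS against 0.823 FPKM in HMPOS, giving a log2 ratio of 3.098.

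In HMPOS, 10 of the 103 further genes are listed, 9 higher and 1 lower in extravasated cells, and 3 were higher and 1 lower by more than 2-fold. That is 90% higher at any fold, and 30% and 10% past 2-fold, against 67.0%, 20.5% and 4.79% of all rows. The median log2 ratio was 0.82, beside 0.58 over all rows, and after centring 7 were higher and 3 lower. The lower gene was FSTL4, a follistatin-like gene, which went from 0.705 to 0.305 FPKM, a log2 ratio of -1.21. NBL1, a secreted BMP antagonist of the DAN family, went from 24.6 to 76.9 FPKM, a log2 ratio of 1.64. FBN2, a microfibril protein that binds latent ligand complexes, went from 1.25 to 2.72 FPKM, a log2 ratio of 1.12. CDKN1A, KLF11, BGN and LTBP4 had log2 ratios between 0.68 and 0.95. KLF11 was listed for D17 as well, with a log2 ratio of 0.65.

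Between HMPOS and POS, 43 further genes are listed, 14 higher and 29 lower in HMPOS with -0.54 as the median log2 ratio, and 5 were higher and 11 lower by more than 2-fold. That is 32.6% higher at any fold, and 11.6% and 25.6% past 2-fold, against 47.7%, 8.49% and 19.1% of all rows, whose median was -0.31. THBS1, which encodes the latent TGF-beta activator thrombospondin, measured 53.7 FPKM in POS and 5.01 FPKM in HMPOS, a log2 ratio of -3.42. In extravasated cells THBS1 had a log2 ratio of 0.57 for both D17 and HMPOS, the latter turning to -0.013 after centring. CTGF measured 1.86 and 0.329 FPKM, a log2 ratio of -2.50, and its log2 ratio in extravasated D17 cells was 0.93. IL11, another of the target genes, measured 1.62 FPKM in POS and 0.606 FPKM in HMPOS, a log2 ratio of -1.41. A BMP antagonist and several matrix genes were on the same side. NBL1 measured 122.4 FPKM in POS and 24.6 FPKM in HMPOS, a log2 ratio of -2.31. The matrix genes FBN2, LTBP3 and BGN had log2 ratios of -2.09, -1.82 and -1.77, and LTBP3 had one of 0.95 in extravasated D17 cells. Matrix genes were also found on the other side, FMOD as given above and the fibrillin gene FBN1, at 13.5 FPKM in POS and 35.3 FPKM in HMPOS, a log2 ratio of 1.38. SNAI1, a transcription factor of epithelial-mesenchymal transition that TGF-beta induces, was likewise higher in HMPOS, at 5.50 FPKM in POS and 19.0 FPKM in HMPOS, a log2 ratio of 1.78.

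**Figure D4:**
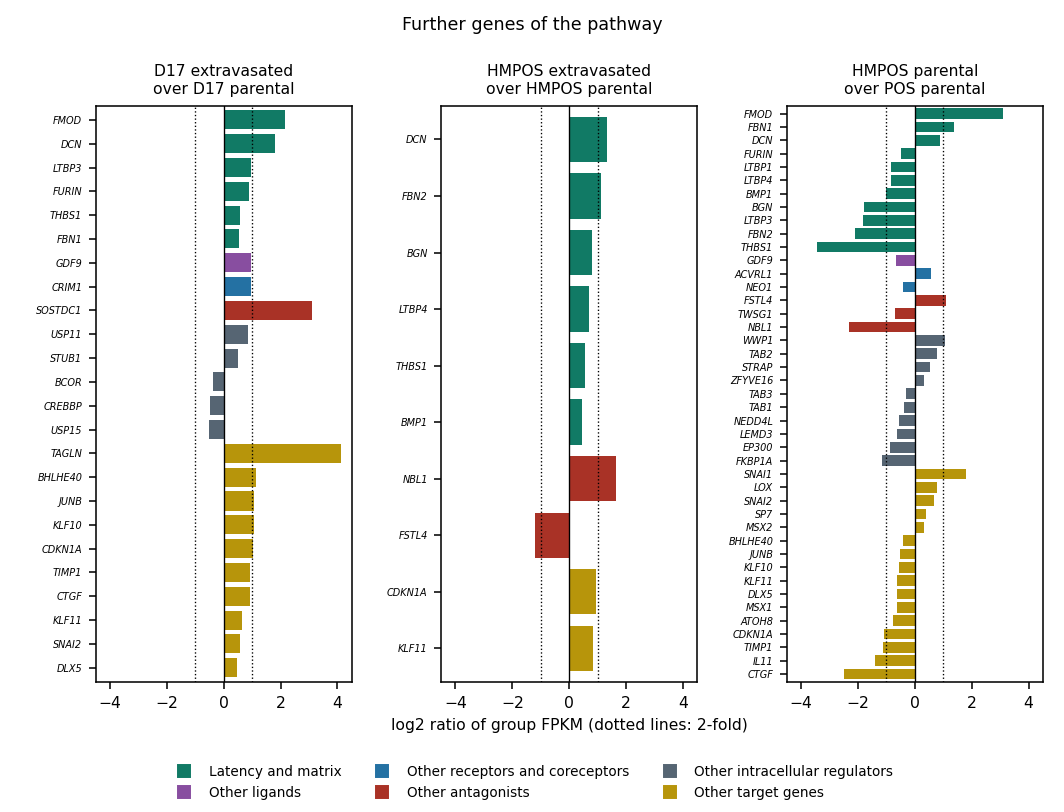
Log2 ratio of group FPKM (x axis) for each further pathway gene listed in the D17 (left), HMPOS (middle) and HMPOS against POS (right) tables, coloured by class, with dotted lines at 2-fold. The bars point mostly to the right for both extravasated lines, with 21 of 24 and 9 of 10 higher, and mostly to the left for HMPOS against POS, with 29 of 43 lower.

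Marker genes of cell types were read beside these members. Of 9 osteoblast lineage markers, 4 are listed for D17 and 5 each for HMPOS and for HMPOS against POS. They were higher in extravasated D17 cells in 4 of 4 cases and in extravasated HMPOS cells in 4 of 5, and lower in HMPOS than in POS in 4 of 5, where 54.2%, 67.0% and 47.7% of all rows were higher. COL1A1 measured 224.4 FPKM in parental D17 cells and 397.4 FPKM after extravasation. Its log2 ratio of 0.42 in HMPOS turned to -0.16 after centring, which left 3 of the 5 higher. The exception in HMPOS was IBSP, the bone sialoprotein gene, which went from 2.05 to 0.427 FPKM, a log2 ratio of -2.26, and that between HMPOS and POS was the osteoblast transcription factor gene SP7, at 54.5 against 41.7 FPKM. BGLAP, the osteocalcin gene, measured 676.3 FPKM in POS and 27.3 FPKM in HMPOS. Of 4 epithelial markers, EPCAM and CDH1 are listed for D17, with EPCAM going from 0.431 to 1.72 FPKM and CDH1 from 0.0783 to 1.47 FPKM. CDH1 is also in the other tables, at 1.49 FPKM in parental and 3.04 FPKM in extravasated HMPOS cells, and at 4.30 FPKM in POS. Of 6 endothelial markers, KDR is listed in the table of HMPOS against POS, at 1.73 FPKM in POS and 0.146 FPKM in HMPOS. The span of KDR overlaps that of SRD5A3. None of the 5 leukocyte markers is in any table. In bulk RNA a different share of cells and a different amount of RNA per cell cannot be told apart, and the part of such shares in the values above was not tested.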

How the data were processed

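RNA of 15 libraries in 5 groups was sequenced. The authors deposited, for each of 3 comparisons, a table with 1 FPKM value per group, which pools the 3 libraries, for the genes that their test marked as significant. The tables have the columns of Cuffdiff. The submitters' processing notes name Trimmomatic 0.38, TopHat2, Cufflinks, Cuffdiff and the build CanFam3.1, whereas the article describes STAR, voom and limma. The deposited tables also hold the authors' log2 fold change, test statistic, p-value and q-value, which were not used. Columns of single samples left unused numbered 0.

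Rows were taken where the gene symbol equals a member. Ratios of the 2 group values were recomputed on the log2 scale without a pseudocount, and a gene at 0 in 1 group counted as past the threshold but got no ratio. Counts at a fold change above 2 were set beside those over all rows. Without values per library no test was run, although tests had been planned in case such values were given. Alternatives were fold changes of 1.5 and 3, a minimum of 1 FPKM in the higher group, pseudocounts of 1 and 0.1, and centring on the median of all rows. The rule for named genes was every member past 2-fold, in both extravasation tables, or BMP5 or TGFB2. Values of the other listed members were added, and further pathway genes were named as at most the 8 largest ratios of a comparison with at least 1 FPKM. Their values in other comparisons, and FSTL4, FBN1, BMP1, TAB3 and the low FMOD ratio in HMPOS against POS, were added after their values were seen. 1 gene of the further pathway list is not reported here and was left out of its counts. Marker genes with printed values were chosen after their values were seen. The members and lists were chosen with earlier results of these data known. Coordinates are as the tables give them, on CanFam3.1 by the processing notes. Whether the first position counts from 0, and whether strand was used in counting, is not given in the sources used here. No sequence is printed, since none was used here. The counting of calls was tested on simulated data. Python 3.11.15, numpy 2.4.6, pandas 2.3.3 and matplotlib 3.10.9 were used.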

Additional observations from a re-analysis of the deposited data

Results flagged for a closer look

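ID3 had opposite directions in the extravasated cells of the lines. From parental to extravasated cells it went from 136.9 to 44.8 FPKM in D17, a log2 ratio of -1.61, and from 34.5 to 52.7 FPKM in HMPOS, a log2 ratio of 0.61. The difference between the lines was not tested, because each group has 1 pooled value. Centred on the median of all rows the ratio in HMPOS was 0.027 and that in D17 was -2.00.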

How the results depend on the processing

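The counts of members past the threshold depended most on that threshold. Of the 15, 8 and 30 listed members, those past 1.5-fold were 8 higher and 3 lower in D17, 5 and 2 in HMPOS and 6 and 17 in HMPOS against POS. The shares of all rows were 36.9% and 24.9%, 49.9% and 14.6%, and 23.6% and 34.4% in the same order. At 3-fold 1 was higher in D17 and 4 were lower in HMPOS against POS, beside 8.07% and 9.75% of all rows. Centring on the median of all rows, which shifted log2 ratios by 0.39, 0.58 and -0.31, gave 2 higher and 2 lower in D17, 2 lower in HMPOS and 4 higher in HMPOS against POS. Over all rows, the share of higher ones among those past 2-fold went from 68.3% to 31.9%, from 81.1% to 16.8% and from 30.7% to 57%. PMEPA1 in HMPOS turned to -0.066 after centring, the 1 reversal among the ratios of members. Among the further pathway and marker genes, THBS1, BMP1 and COL1A1 in HMPOS turned to -0.013, -0.12 and -0.16. TAB3 in HMPOS against POS turned to 0.0048. With a pseudocount of 1 FPKM, 0 members were higher by more than 2-fold in HMPOS, beside 7.06% of all rows. The other 23 of 36 recomputed counts stayed within 1.5 times.

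No paired analysis was possible because each group has a single pooled FPKM, and fits that leave out a library could not be made for the same reason. Values near or below 1 FPKM (BMP5, CHRD, CHRDL1, FST and ID4) are limited most by the unknown depth.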
